A study of Mus musculus with 24 samples.

Results

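The MHC class I antigen presentation pathway was followed in fetal liver as 10 genes chosen by name, H2-K1, H2-D1, H2-T23, B2m, Tap1, Tap2, Tapbp, Psmb8, Psmb9 and Nlrc5, and all 10 were found among the 25361 genes of the expression table. MHC class I molecules sit on the surface of nearly all nucleated cells and show peptides from inside the cell to CD8 T cells. The proteasome cuts proteins into peptides, the TAP transporter moves them into the endoplasmic reticulum, and a loading complex places them on a heavy chain that is bound to beta-2 microglobulin. Interferons raise the whole pathway through STAT and IRF factors and the regulator Nlrc5, and fetal tissues are known for low levels of it. In liver, the sinusoidal endothelium is itself known to take up and present antigen.

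RNA was sequenced from mouse livers at embryonic day 12.5, each divided into CD146+ cells, called liver sinusoidal endothelial cells (LSECs), and the cells that the CD146 beads left behind (non-EC cells). Both fractions had 4 genotypes with 3 replicates each, 24 libraries in all. Controls were Cre-negative littermates. Chd4-ECko embryos were Brg1 fl/+;Chd4 fl/fl and carried VE-cadherin-Cre, Brg1-ECko embryos were Brg1 fl/fl;Chd4 fl/+ and carried VE-cadherin-Cre, and Brg1/Chd4-ECdko embryos, called double mutants, had both genes floxed on both alleles together with VE-cadherin-Cre. CHD4 and BRG1 (gene Smarca4) are ATPases of the NuRD and SWI/SNF chromatin remodelling complexes. VE-cadherin-Cre acts in endothelial cells and also in some blood cells, so a blood cell of a mutant can carry the deletion. Each data point was 1 embryo on a mixed genetic background, with both sexes pooled, and all libraries were labelled batch 1. Values are TPM, a measure of transcript abundance that is scaled to gene length and to the same total in every library, so levels can be compared between genes but the number of reads behind a value is unknown.

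Endothelial markers were present in the LSEC fraction, and it held other cells as well. The summed level of 13 endothelial markers was 1063 to 2182 TPM in LSEC libraries and 42.7 to 96.7 TPM in non-EC libraries. Mesenchyme markers were as concentrated in the CD146+ fraction, where 8 summed to 739 to 1258 TPM against 18.3 to 73.6 TPM in non-EC cells. In controls all 13 endothelial and all 8 mesenchyme markers were higher in LSECs than in non-EC cells (median log2 fold changes 3.87 and 4.5), Pdgfra (4.71 ± 0.22), Col1a2 (5.27 ± 0.30), Dcn (4.29 ± 0.23) and Pdgfrb (3.59 ± 0.21) among them, and 6 of 12 macrophage markers were higher, C1qa by 1.66 ± 0.31. A difference between the fractions is therefore one between mixtures of cells. The first Brg1-ECko LSEC library stood apart, with 25585 TPM of 8 hepatoblast markers against 3035 to 7241 TPM in the other 11 LSEC libraries. Mitochondrial genes took 13.9% to 31.5% of TPM in LSECs and 2.33% to 7.69% in non-EC cells. Chd4 averaged 262 ± 20.1 TPM (SD, n = 3) in control LSECs, 215 ± 42.5 TPM in Chd4-ECko and 249 ± 6.95 TPM in double-mutant LSECs. Smarca4 averaged 146 ± 13.4 TPM in control LSECs, 132 ± 23.5 TPM in Brg1-ECko and 133 ± 16.7 TPM in double-mutant LSECs. These are levels of whole genes, in which reads of the deleted exons cannot be told from the rest, so they do not check the genotype labels.

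Of the 10 genes, 8 lie on chromosome 17 in or beside the H2 complex of GRCm39. Tapbp (34134873 to 34148267), H2-K1 (34214987 to 34219321), Psmb9 (34400960 to 34406738), Tap1 (34405996 to 34416199), Psmb8 (34416690 to 34420428) and Tap2 (34422501 to 34435829) follow each other there, with H2-D1 (35481691 to 35486475) and H2-T23 (36340229 to 36345571) farther along. B2m lies on chromosome 2 (121977957 to 121983594) and Nlrc5 on chromosome 8 (95160984 to 95253900). RefSeq windows of 250 bases before to 50 bases after the start site, from build GRCm38.p6, were at hand for 8 of the 10 genes, all but Tap2 and Nlrc5. The 250 bases before the start are shown for H2-K1, H2-T23 and B2m, which changed in a comparison described further on, and for H2-D1, the classical heavy chain that did not pass there. Capitals mark an IRF core (AANNGAAA) or a kappa B site (GGGNNTTCC), read on either strand.
H2-K1, chr17:34000348-34000597, minus strand: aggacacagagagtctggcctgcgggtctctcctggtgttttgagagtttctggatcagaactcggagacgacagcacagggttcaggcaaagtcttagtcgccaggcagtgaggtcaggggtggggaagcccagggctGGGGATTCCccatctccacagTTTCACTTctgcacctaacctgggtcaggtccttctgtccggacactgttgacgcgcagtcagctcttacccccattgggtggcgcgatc
H2-D1, chr17:35262844-35263093, plus strand: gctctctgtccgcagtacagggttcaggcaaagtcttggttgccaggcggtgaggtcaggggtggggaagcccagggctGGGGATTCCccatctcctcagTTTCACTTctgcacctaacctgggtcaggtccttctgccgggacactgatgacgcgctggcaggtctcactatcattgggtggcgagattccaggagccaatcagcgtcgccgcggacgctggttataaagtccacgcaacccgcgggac
H2-T23, chr17:36032702-36032951, minus strand: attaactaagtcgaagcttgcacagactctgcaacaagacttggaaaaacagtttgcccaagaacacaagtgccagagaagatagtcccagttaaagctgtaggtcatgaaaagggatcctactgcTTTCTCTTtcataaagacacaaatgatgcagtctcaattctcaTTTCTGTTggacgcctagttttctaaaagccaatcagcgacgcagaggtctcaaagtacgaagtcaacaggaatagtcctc
B2m, chr2:122147437-122147686, plus strand: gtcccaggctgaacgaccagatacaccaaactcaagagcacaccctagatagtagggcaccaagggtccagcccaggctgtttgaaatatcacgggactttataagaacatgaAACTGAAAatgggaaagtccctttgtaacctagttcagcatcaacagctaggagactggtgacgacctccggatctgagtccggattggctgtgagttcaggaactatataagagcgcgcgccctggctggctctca

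The start-proximal sequences of H2-K1 and H2-D1 share an unbroken run of 47 bases, at -141 to -95 of H2-K1 and -201 to -155 of H2-D1, which holds the same kappa B letters in both. An IRF core follows it in each, at -90 to -83 in H2-K1 and at -150 to -143 in H2-D1. H2-K1 has another RefSeq start site, not shown. From that site its IRF core lies at -104 to -97 and its kappa B site at -125 to -117. H2-T23 held 2 IRF cores, at -124 to -117 and at -81 to -74, and B2m held 1 at -137 to -130. In the windows of 300 bases an IRF core was found for 4 of the 8 genes, a kappa B site for 2 and a gamma-activated site (TTCNNNGAA) for 1, Psmb8. Among 32851 RefSeq windows of that length the shares were 23.9%, 5.82% and 8.30%. These letters were chosen after the windows were seen. A match is a description of the sequence and no evidence that a factor binds there.

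The first question is how much of the pathway the fetal liver expresses. B2m, the light chain that every class I heavy chain needs, was the highest of the 10 genes in all 24 libraries, at 516 to 737 TPM in LSECs and 446 to 696 TPM in non-EC cells. The classical heavy chains H2-D1 and H2-K1, which carry peptides to CD8 T cells, came next. H2-D1 ranged from 85.8 to 168 TPM in LSECs and from 85.4 to 138 TPM in non-EC cells, and H2-K1 from 48.4 to 106 TPM and from 68.8 to 159 TPM. H2-T23, the Qa-1 heavy chain known as a ligand of NKG2A receptors, and Tapbp (tapasin), which holds empty class I molecules at the transporter, lay lower and overlapped each other. H2-T23 was 10.3 to 31.0 TPM in LSECs and 18.9 to 42.5 TPM in non-EC cells, and Tapbp 19.7 to 32.7 TPM and 22.8 to 43.4 TPM.

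The transporter and the inducible proteasome were low. Tap1 ranged from 2.99 to 7.22 TPM in LSECs and from 2.85 to 6.39 TPM in non-EC cells. Tap2, its partner in the heterodimer, was 3.76 to 6.35 TPM in LSECs and 9.43 to 12.7 TPM in non-EC cells. Psmb8 (LMP7), a catalytic subunit of the immunoproteasome, was 9.79 to 21.1 TPM in LSECs and 9.67 to 22.1 TPM in non-EC cells, and its partner Psmb9 (LMP2) was 1.79 to 4.53 TPM and 1.77 to 4.07 TPM. By comparison, the constitutive subunits that they replace were far higher in control LSECs, Psmb5 at 87.5 to 106 TPM and Psmb6 at 306 to 369 TPM. Nlrc5, the transactivator of class I genes, was lowest of the 10 in every library, at 0.131 to 0.421 TPM in LSECs and 0.0723 to 0.339 TPM in non-EC cells, so it did not reach the filter of 1 TPM in 3 libraries and was not tested. The other 9 genes were at 1.77 TPM or above in all 24 libraries.

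Neighbours in the order of levels were often not separated. In LSECs Psmb8 lay above Tap2 in 12 of 12 libraries, whereas H2-T23 lay above Psmb8 in 9 and Tap2 above Tap1 in 9. In non-EC cells H2-K1 lay above H2-D1 in 8 of 12 libraries, 0 of 3 control and 8 of 9 mutant ones. Tapbp lay above H2-T23 in 8 of the 12, so the order of these pairs depended on the library or the genotype.

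**Figure D1:**
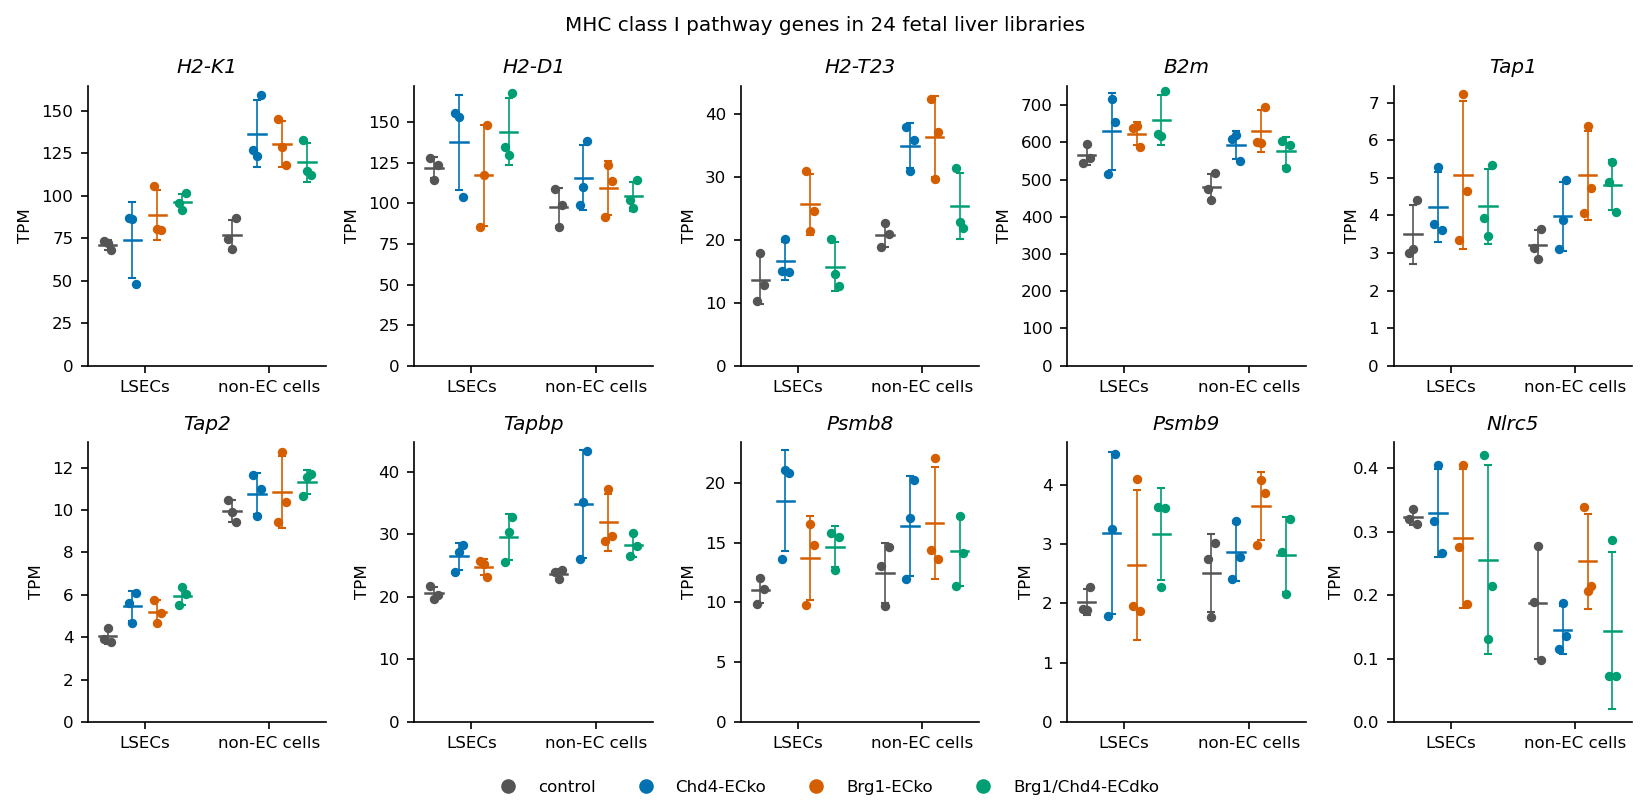
TPM of the 10 class I pathway genes in 12 LSEC and 12 non-EC libraries (y axes start at 0 and differ between panels). Points are libraries, horizontal lines are means and bars are SDs of 3 replicates; H2-K1 in non-EC cells is 68.8 to 87.0 TPM in controls and 112 to 159 TPM in the 9 mutant libraries.

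Between the fractions of control embryos, the TAP transporter subunit Tap2 was the member that differed most. Tap2 was 3.93, 4.44 and 3.76 TPM in control LSECs and 10.5, 9.92 and 9.43 TPM in control non-EC cells. The fractions did not overlap, and the log2 fold change on log2(TPM + 1) was -1.12 ± 0.13 (SE, adjusted p = 1.86e-07). H2-T23 was also lower in LSECs, at 10.3, 17.9 and 12.8 TPM against 18.9, 22.7 and 21.0 TPM, with a log2 fold change of -0.60 ± 0.20 (adjusted p = 0.0131). That call was lost without the first control LSEC library (adjusted p = 0.0905) and when TPM were rescaled without mitochondrial genes (adjusted p = 0.177). These 2 of the 9 genes tested passed, both lower in LSECs, against 67.1% of all 13775 genes tested. B2m (log2 fold change 0.24 ± 0.12, adjusted p = 0.0735) and H2-D1 (0.32 ± 0.18, adjusted p = 0.127) were above non-EC cells in all 3 control LSEC libraries without passing. Without mitochondrial genes, which took more of the LSEC libraries, both passed as higher in LSECs (adjusted p = 9.56e-05 for B2m and 0.0182 for H2-D1). The median over all genes moved from -0.09 to 0.16 under that scaling. After quantile normalization B2m and H2-D1 also passed as higher (adjusted p = 6.57e-05 and 0.0154), while Psmb9, at -0.20 ± 0.24 (adjusted p = 0.474) before, passed as lower in LSECs at -0.84 (adjusted p = 0.00534).

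Other genes of the pathway that passed lay in both directions. All 4 class I-like partners of B2m tested were higher in control LSECs, namely Fcgrt, the neonatal Fc receptor (log2 fold change 2.35 ± 0.21), Hfe, a regulator of iron uptake (1.56 ± 0.24), Mr1, which presents vitamin B metabolites (1.51 ± 0.17), and Cd1d1, which presents lipids (0.71 ± 0.25). Among 9 other class I heavy chains tested, H2-Q4 was higher in LSECs (0.98 ± 0.13). H2-Q10, a soluble class I molecule made by hepatocytes, was lower in LSECs (-1.91 ± 0.42), as were H2-Q7 (-1.33 ± 0.40) and H2-Q6 (-1.01 ± 0.43). Of 6 other proteasome genes 2 passed, both lower in LSECs, the immunoproteasome subunit Psmb10 (-0.99 ± 0.14) and the activator Psme1 (-0.35 ± 0.12). Of 5 other genes of peptide loading and trimming, the aminopeptidase Erap1 (-0.78 ± 0.17), the tapasin-related Tapbpl (-0.78 ± 0.23) and the chaperone Canx (-0.50 ± 0.16) were lower in LSECs and the disulfide isomerase Pdia3 was higher (0.43 ± 0.16). Medians of these lists, in the order given, were 1.53, -0.07, -0.24 and -0.50 against -0.09 over all genes.

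Regulators of the pathway also differed in both directions. Of 10 transcriptional regulators 3 were higher and 4 lower in control LSECs, and those with the smallest p were Rela (-0.64 ± 0.13), Irf2 (-0.62 ± 0.12), Rfxap (-0.40 ± 0.10) and Irf9 (-0.65 ± 0.17), all lower. Of 7 interferon receptor and kinase genes 3 were higher and 3 lower, with Ifngr2 (1.30 ± 0.16), Ifnar1 (1.07 ± 0.13) and Jak1 (0.83 ± 0.13) higher and Ifnar2 (-0.47 ± 0.13) lower. Of 6 class II genes H2-Aa (0.84 ± 0.34) and the invariant chain Cd74 (0.80 ± 0.31) were higher. The shares of genes that passed in these lists stand against 67.1% over the table, and the part of mesenchyme and macrophage RNA in any of these differences was not tested.

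The next question is whether loss of CHD4, BRG1 or both in the endothelium changed the pathway in LSECs. None of the 9 genes passed in Chd4-ECko, Brg1-ECko or double-mutant LSECs against control. Over the 13444 genes tested 0.707%, 0.0223% and 0.87% passed, so few genes of any kind did. At an unadjusted p under 0.05 by limma there were 3, 1 and 3 of the 9, against 6.49%, 9.68% and 12.1% of all genes. The median log2 fold change over these 9 was 0.29 for Chd4-ECko, 0.27 for Brg1-ECko and 0.38 for double-mutant LSECs, where the medians over all genes were 0.01, 0.08 and 0.16. Quantile normalization moved the last of these to -0.0035. All 3 libraries of the mutant lay above all 3 controls for 3, 4 and 6 of the 9 genes, against 8.7%, 10.9% and 20.8% of all genes. The 3 comparisons share the same control libraries.

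Among the loading and transport genes of LSECs, Tapbp was 21.8, 19.7 and 20.3 TPM in controls, 24, 27.1 and 28.3 TPM in Chd4-ECko, 25.8, 25.2 and 23.3 TPM in Brg1-ECko, with 25.6, 30.3 and 32.7 TPM in the double mutants. Every mutant library lay above every control. The share of all genes with this layout is not given here. The log2 fold change was 0.34 ± 0.13 (adjusted p = 0.473) in Chd4-ECko, 0.25 ± 0.13 (adjusted p = 0.561) in Brg1-ECko and 0.49 ± 0.13 (adjusted p = 0.117) in double mutants.

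Tap2 had the same layout, with 3.93, 4.44 and 3.76 TPM in controls, 5.61, 4.68 and 6.09 TPM in Chd4-ECko, 5.77, 4.68 and 5.12 TPM in Brg1-ECko, with 5.51, 6.35 and 6.03 TPM in the double-mutant LSECs. Again no mutant library overlapped the controls. Its log2 fold changes were 0.35 ± 0.16 (adjusted p = 0.727), 0.29 ± 0.16 (adjusted p = 0.579) and 0.47 ± 0.16 (adjusted p = 0.239). Psmb8 was 9.90, 12.1 and 11.1 TPM in controls and 13.6, 21.1 and 20.8 TPM in Chd4-ECko LSECs, a log2 fold change of 0.68 ± 0.21 (adjusted p = 0.244) with a 95% confidence interval of 0.24 to 1.12. In double-mutant LSECs it was 15.8, 12.7 and 15.5 TPM (0.38 ± 0.21, adjusted p = 0.462). The first Brg1-ECko library, at 9.79 TPM, lay below all controls, and the other libraries of that genotype were at 16.6 and 14.8 TPM. The log2 fold change of Psmb8 in Brg1-ECko was 0.27 with that library and 0.48 without it.

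The heavy chains in LSECs varied between embryos of 1 genotype. H2-K1 was 73.4, 72.2 and 67.9 TPM in controls, 87.3, 86.6 and 48.4 TPM in Chd4-ECko, 106, 80.7 and 80.2 TPM in Brg1-ECko, with 95.7, 91.6 and 101 TPM in the double-mutant LSECs. The third Chd4-ECko library lay below every control and the other two above. The log2 fold change was 0.43 ± 0.19 (adjusted p = 0.392) in double mutants, 0.31 ± 0.19 (adjusted p = 0.633) in Brg1-ECko and 0.01 ± 0.19 (adjusted p = 1.0) for Chd4-ECko, where it was 0.29 without the third library. The Brg1-ECko value was 0.18 without the first library of that genotype, the one rich in hepatoblast markers. H2-T23 was 31.0, 21.4 and 24.6 TPM in Brg1-ECko LSECs, all above the controls at 10.3, 17.9 and 12.8 TPM, with a log2 fold change of 0.88 ± 0.22 (adjusted p = 0.250). The highest of these was the same library, and without it the log2 fold change was 0.74 (adjusted p = 0.539).

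B2m, H2-D1, Tap1 and Psmb9 did not pass in LSECs of any genotype. H2-D1 in Brg1-ECko was at 85.8 TPM in the first library and at 118 and 149 TPM in the others, and its log2 fold change turned from -0.09 to 0.11 without the first. B2m was 544, 596 and 558 TPM in controls and 624, 618 and 737 TPM in double-mutant LSECs, which do not overlap (log2 fold change 0.22 ± 0.14, adjusted p = 0.514, and 0.13 without the third double-mutant library). The double mutant was also compared with each single mutant in LSECs, and 0 of the 9 genes passed in either comparison, against 0.0372% of genes for Chd4-ECko and 0.0967% for Brg1-ECko. At an unadjusted p under 0.05 by limma 1 of the 9 was found in each, against 10.4% and 6.1% of all genes. H2-K1 was higher in double mutants than in Chd4-ECko by 0.42 ± 0.19 (adjusted p = 0.479), and by 0.14 without the third Chd4-ECko library. H2-T23 had a log2 fold change of -0.68 ± 0.22 (adjusted p = 0.459) in double mutants against Brg1-ECko, and -0.54 without the first Brg1-ECko library.

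Markers of several cell types moved with these values. The summed level of 10 leukocyte markers was 121 to 160 TPM in control LSECs and 188 to 337 TPM in the 9 mutant LSEC libraries. Of the 10, 4 rose in Chd4-ECko LSECs, Laptm5 (1.30 ± 0.16), Vav1 (1.16 ± 0.17), Was (1.16 ± 0.16) and Rac2 (1.22 ± 0.19), and the same 4 rose in double-mutant LSECs by 1.01 to 1.19. The 12 macrophage markers summed to 392 to 590 TPM in controls and 508 to 1205 TPM in mutants, and Cx3cr1 (1.59 ± 0.24), Fcgr3 (1.40 ± 0.29) and Fcer1g (1.12 ± 0.22) rose in Chd4-ECko LSECs. In Chd4-ECko the 2 libraries with the highest Psmb8 had leukocyte sums of 337 and 324 TPM, and the third had 217 TPM. The number of leukocyte markers that passed for Chd4-ECko was 8 without its first library and 3 or 4 without any other, and of macrophage markers 9 passed without that library, 0 without the third and 1 to 3 without any other. In double mutants 1 leukocyte marker passed without the second control library or the third double-mutant one. Other lists had no marker that passed but leaned one way. In Brg1-ECko LSECs all 13 endothelial markers had values below 0 (median -0.45) and all 8 hepatoblast markers values above 0 (median 1.10). Without the first Brg1-ECko library, the one with 25585 TPM of hepatoblast markers, 11 of the 13 endothelial markers were below 0 (median -0.25), and the 8 hepatoblast markers were above 0 with a median of 0.48. The 8 hepatoblast markers were also above 0 in double mutants (median 0.44), and the 8 erythroid markers in Chd4-ECko (median 0.75). The part of any of these in the class I values was not tested. In bulk RNA, more cells of a type and more RNA per cell cannot be told apart.

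**Figure D2:**
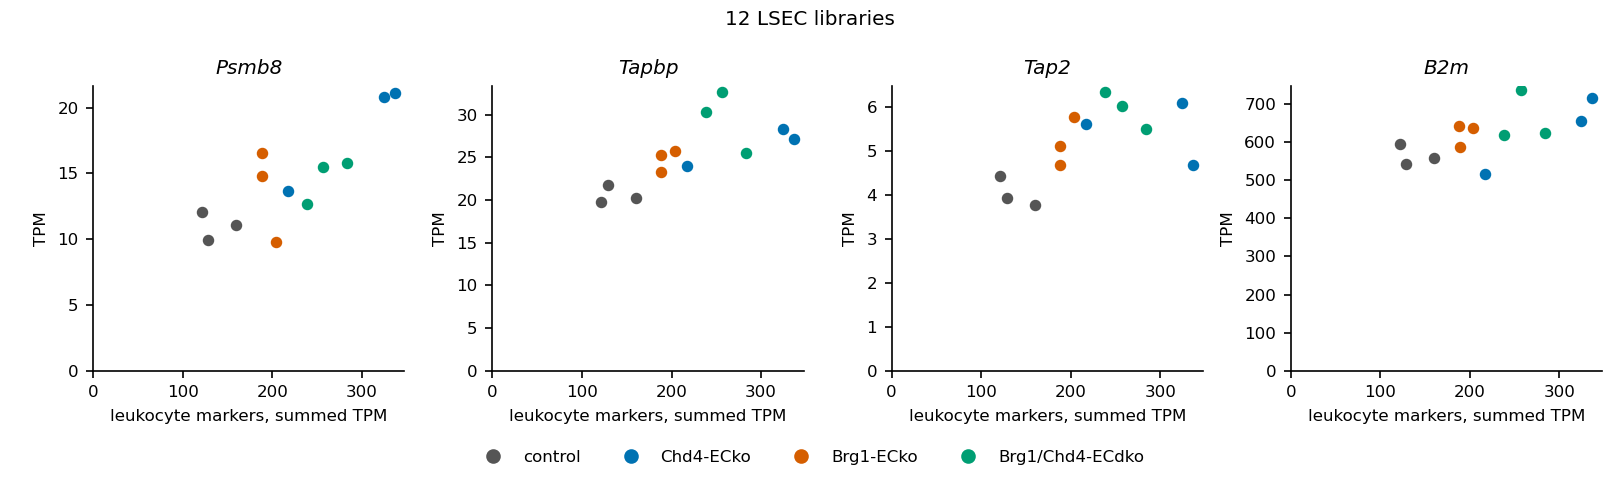
TPM of 4 class I pathway genes (y axes) against the summed TPM of 10 leukocyte markers (x axes) in 12 LSEC libraries, 1 point each, coloured by genotype. Control libraries lie at 121 to 160 TPM of leukocyte markers and mutant libraries at 188 to 337 TPM; Psmb8 is highest in the 2 Chd4-ECko libraries farthest to the right.

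The interferon arm gave 2 further calls in LSECs. Irf9, the DNA-binding subunit of the type I interferon response factor, was 9.75, 8.77 and 10.2 TPM in controls and 15.3, 19.6 and 26.6 TPM in double-mutant LSECs (log2 fold change 0.99 ± 0.20, adjusted p = 0.0329). Jak2, a kinase of the interferon gamma receptor, was 47.2, 41.3 and 38.7 TPM in controls, against 61.3, 66.0 and 75.7 TPM in double-mutant LSECs (0.66 ± 0.13, adjusted p = 0.0370). They were 1 of 10 regulators of class I transcription and 1 of 7 interferon receptor and kinase genes tested, against 0.87% of all genes, and no gene of either list passed in Chd4-ECko or Brg1-ECko LSECs. Either call was lost without 5 of the 6 libraries compared, all but the first double-mutant one, with adjusted p up to 0.155 for Irf9 and 0.169 for Jak2. The medians of the 2 lists in the double mutant were 0.32 and 0.14 against 0.16 over all genes. Ifnb1 was listed at 0 in all 24 libraries, and Ifng reached at most 0.140 TPM.

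The non-EC cells, which the Cre does not target apart from some blood cells, gave the only class I pathway genes that passed against control. H2-K1 and H2-T23 rose in Chd4-ECko, and H2-K1, H2-T23 and B2m rose in Brg1-ECko non-EC cells. These were 2 and 3 of the 9 genes tested, against 9.48% and 11.7% of 12223 genes. In double-mutant non-EC cells 0 of 9 passed, where 0.581% of all genes did, and 3 of 9 had an unadjusted p under 0.05 by limma, as did 11.7% of all genes. The median log2 fold change over the 9 genes was 0.31, 0.41 and 0.24, where the medians over all genes were 0.01, 0.02 and 0.01. The mutant libraries lay wholly above the controls for 4, 5 and 5 of the 9 genes, against 15.8%, 21.9% and 16.0% of all genes, and wholly below for none of the 9. None of the passing changes reached a log2 fold change of 1.

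H2-K1 had the smallest adjusted p of the 9 genes in all 3 genotypes. It was 74.4, 68.8 and 87.0 TPM in control non-EC cells, 127, 124 and 159 TPM in Chd4-ECko, 145, 129 and 118 TPM in Brg1-ECko, with 133, 114 and 112 TPM in the double mutants. All 9 mutant libraries lay above all 3 controls, which the genotypes share. No share of all genes with this layout over the 9 libraries is given here. The log2 fold change was 0.82 ± 0.13 (adjusted p = 0.00693) in Chd4-ECko, 0.76 ± 0.13 (adjusted p = 0.00407) in Brg1-ECko and 0.64 ± 0.13 (adjusted p = 0.0517) in double mutants. The last fell just outside the threshold and passed after quantile normalization (adjusted p = 0.0430), and over all alternatives its adjusted p lay between 0.0357 and 0.226. The call in either single mutant held when any 1 library was left out.

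H2-D1, whose upstream sequence shares the 47-base run with that of H2-K1, did not pass in any genotype. It was 109, 85.4 and 98.9 TPM in control non-EC cells, 99.2, 110 and 138 TPM in Chd4-ECko, 91.5, 124 and 114 TPM in Brg1-ECko, with 102, 97.0 and 114 TPM in the double mutants. Each mutant overlapped the controls. The log2 fold changes were 0.24 ± 0.15 (adjusted p = 0.278), 0.16 ± 0.15 (adjusted p = 0.490) and 0.10 ± 0.15 (adjusted p = 0.923). When 1 library was left out they spanned 0.10 to 0.34, 0.07 to 0.28 and 0.01 to 0.18. The ratio of H2-K1 to H2-D1 within a library, which does not depend on how TPM are scaled, was 0.682 to 0.880 in the 3 control non-EC libraries and 0.981 to 1.59 in the 9 mutant ones. In LSECs the ratio was 0.548 to 0.629 in controls and 0.465 to 0.711 in mutants, except for the first Brg1-ECko library at 1.23.

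H2-T23 was 18.9, 22.7 and 21.0 TPM in control non-EC cells, 38.0, 31.0 and 35.9 TPM in Chd4-ECko, 42.5, 29.7 and 37.1 TPM in Brg1-ECko, with 31.5, 22.9 and 21.8 TPM in the double mutants. The single mutants lay above the controls, and the double mutant overlapped them. The log2 fold change was 0.72 ± 0.16 (adjusted p = 0.0251) in Chd4-ECko, 0.77 ± 0.16 (adjusted p = 0.0124) in Brg1-ECko and 0.26 ± 0.16 (adjusted p = 0.646) in double mutants, where it was 0.10 without the first library. In Chd4-ECko the call was lost without any 1 of the 3 controls (adjusted p = 0.0836, 0.0511 and 0.0660) or without the third Chd4-ECko library (0.0745). In Brg1-ECko it was lost without the first (0.0617) or the third Brg1-ECko library (0.0508).

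B2m was 475, 446 and 519 TPM in control non-EC cells, 609, 619 and 551 TPM in Chd4-ECko, 600, 598 and 696 TPM in Brg1-ECko, with 603, 532 and 593 TPM in the double mutants. All 9 mutant libraries again lay above the controls. The log2 fold change was 0.31 ± 0.09 (adjusted p = 0.0602) in Chd4-ECko, 0.39 ± 0.09 (adjusted p = 0.0215) in Brg1-ECko and 0.26 ± 0.09 (adjusted p = 0.250) in double mutants. The Brg1-ECko call was lost without the first or second control (adjusted p = 0.0660 and 0.0831) and without the first or the third Brg1-ECko library (0.0527 and 0.0918).

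Among the transport and loading genes of non-EC cells, Tapbp was 24, 22.8 and 24.2 TPM in controls, 26.1, 35.2 and 43.4 TPM in Chd4-ECko, 29.0, 37.2 and 29.7 TPM in Brg1-ECko, with 26.5, 30.3 and 28.1 TPM in the double mutants. Every mutant library lay above the controls, and the log2 fold changes of 0.51 ± 0.16 (adjusted p = 0.0632), 0.41 ± 0.16 (adjusted p = 0.126) and 0.24 ± 0.16 (adjusted p = 0.670) did not pass. Without the first Chd4-ECko library Tapbp (adjusted p = 0.00271) and B2m (adjusted p = 0.0469) passed in that comparison, as 4592 genes of the table then did in place of 1159. Tap1 was 3.14, 2.85 and 3.64 TPM in controls, 4.08, 6.39 and 4.73 TPM in Brg1-ECko, with 4.90, 5.43 and 4.10 TPM in the double mutants (0.51 ± 0.18, adjusted p = 0.0945, and 0.46 ± 0.18, adjusted p = 0.321). Its Chd4-ECko values of 3.12, 3.87 and 4.95 TPM overlapped the controls (0.23 ± 0.18, adjusted p = 0.401). Tap2, Psmb8 and Psmb9 differed from control by 0.10 to 0.41 in the 3 genotypes, and none passed.

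**Figure D3:**
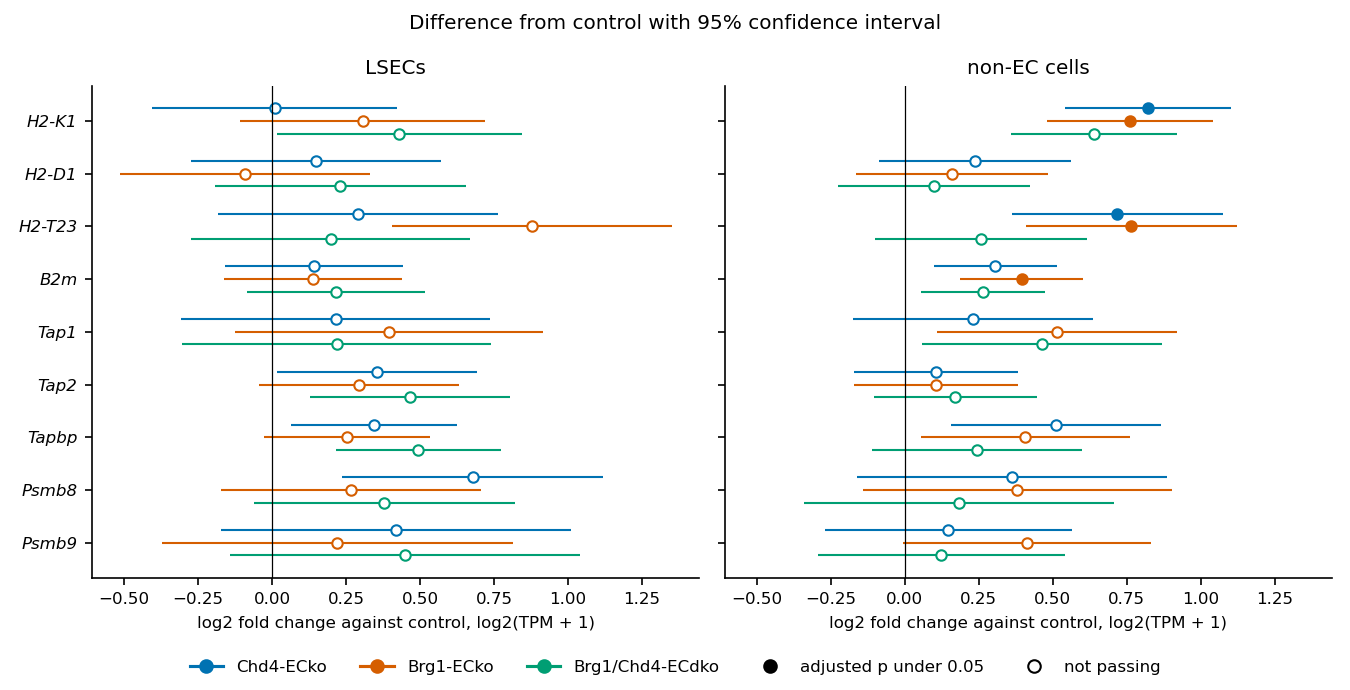
Log2 fold change against control on log2(TPM + 1), with 95% confidence intervals, for 9 class I pathway genes in 3 genotypes, LSECs on the left and non-EC cells on the right. Filled points have an adjusted p under 0.05; these are H2-K1 and H2-T23 in Chd4-ECko and H2-K1, H2-T23 and B2m in Brg1-ECko non-EC cells.

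Some other genes of the pathway also rose in non-EC cells. Of 9 other class I heavy chains tested, the same 4 rose in Chd4-ECko and in Brg1-ECko non-EC cells, which share their controls. H2-T22 had log2 fold changes of 1.29 ± 0.26 and 1.10 ± 0.26, H2-Q6 of 1.12 ± 0.31 and 1.11 ± 0.31, H2-Q10 of 1.09 ± 0.22 in both, and H2-Q4 of 0.67 ± 0.13 in both. Of 3 class I-like partners of B2m tested Fcgrt rose (0.79 ± 0.22 and 1.00 ± 0.22). Of 5 loading genes the chaperone Calr (0.36 ± 0.09 and 0.50 ± 0.09) and Tapbpl (0.59 ± 0.13 and 0.74 ± 0.13) rose. Of 6 other proteasome genes the activator subunit Psme1 rose in both genotypes (0.42 ± 0.09 and 0.41 ± 0.09) and Psme2 in Brg1-ECko (0.36 ± 0.10). Some of these limma calls lay close to the threshold. The adjusted p was 0.0477 and 0.0428 for H2-Q6, 0.0475 for Fcgrt in Chd4-ECko and 0.0439 for Psme2. For the others it was 0.0344 or below. How these calls depend on single libraries is not reported here. In double-mutant non-EC cells none of these lists had a gene that passed. Medians of the lists in the single mutants, Chd4-ECko first, were 0.67 and 0.67 for the heavy chains, 0.50 and 0.77 for the partners, -0.20 and 0.08 for the loading genes and 0.32 and 0.38 for the proteasome genes. In Chd4-ECko 3 of the 5 loading genes had values below 0. The shares that passed over all genes were the 9.48% and 11.7% given above.

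Regulators of class I transcription gave no call. Of 10 tested in non-EC cells 0 passed in each genotype, with list medians of -0.03 for Chd4-ECko, 0.11 for Brg1-ECko and 0.14 for double mutants. Of 7 interferon receptor and kinase genes, Jak2 fell in Chd4-ECko non-EC cells, where it was 41.2, 26.9 and 14.3 TPM against 54.1, 44.2 and 56.4 TPM in controls (log2 fold change -1.0 ± 0.28, adjusted p = 0.0473). The call was lost without 5 of the 6 libraries, all but the first Chd4-ECko one (log2 fold change -1.34 to -0.61, adjusted p up to 0.130). Of 5 class II genes tested 0 passed in any comparison of a mutant with control.

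Markers of several cell types moved with the non-EC values, hepatoblast markers most often past the threshold. The 8 markers summed to 15717 to 17538 TPM in control non-EC cells and to 19955 to 33695 TPM in the 9 mutant libraries, with no overlap. Of the 8, 6 rose in Chd4-ECko and 7 in Brg1-ECko non-EC cells, with list medians of 0.82 and 0.95, and 0 passed in double mutants, with a median of 0.47. Without the first Brg1-ECko non-EC library 4 passed there in place of 7. Apoa1 (0.89 ± 0.12 and 1.12 ± 0.12) and Foxa3 (0.84 ± 0.11 and 0.97 ± 0.11) were among those that rose. Of 8 erythroid markers 2 passed in Chd4-ECko, where Tfrc fell by 1.33 and Ermap fell by 0.52, while 3 had values above 0 (median -0.06). In Brg1-ECko 3 fell and all 8 had values below 0 (median -0.78), as all 8 had in double mutants (median -0.40) with none past the threshold. Other lists leaned lower with 0 genes past the threshold. Of 8 granulocyte markers all 8 were below 0 for Chd4-ECko and double mutants and 6 for Brg1-ECko (medians in the order Chd4-ECko, Brg1-ECko, double mutants -0.71, -0.22 and -0.45), and of 6 megakaryocyte markers 6, 3 and 5 were in that order (medians -0.22, 0.04 and -0.26). The granulocyte median for Brg1-ECko was 0.01 without its second library and 0.20 without the third control, without which it was -0.39 for Chd4-ECko and -0.11 for double mutants. Without the second control library it was -1.13, -0.57 and -0.80 for Chd4-ECko, Brg1-ECko and double mutants, and 3, 1 and 0 granulocyte markers fell. The 8 summed to 1462 to 2332 TPM in controls and 847 to 1897 TPM in mutants. The first Brg1-ECko LSEC library, with 25585 TPM of hepatoblast markers, held 113 TPM of H2-Q10 against 10.7 to 28.5 TPM in the other LSEC libraries, and it had the highest LSEC values of H2-K1 and H2-T23 and the lowest of H2-D1. Leukocyte markers summed to 377 to 558 TPM in control and 389 to 503 TPM in mutant non-EC libraries. Of the 10, 7 were below 0 in either single mutant and 8 in double mutants (medians -0.16, -0.10 and -0.16), and Ikzf1, a transcription factor of blood cells, fell in both single mutants (-0.34 ± 0.07, adjusted p = 0.0239 for Chd4-ECko, and -0.56 ± 0.07, adjusted p = 0.00157 for Brg1-ECko). All 11 macrophage markers tested had values above 0 in Chd4-ECko and in Brg1-ECko (medians 0.49 and 0.47) with none past the threshold, and they summed to 155 to 326 TPM in controls, 287 to 411 TPM in Chd4-ECko and 303 to 393 TPM in Brg1-ECko. All 7 mesenchyme markers tested were above 0 in the 3 genotypes, and Dcn rose in Chd4-ECko (0.64 ± 0.16). The part of RNA from any of these cells in the class I values was not tested.

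**Figure D4:**
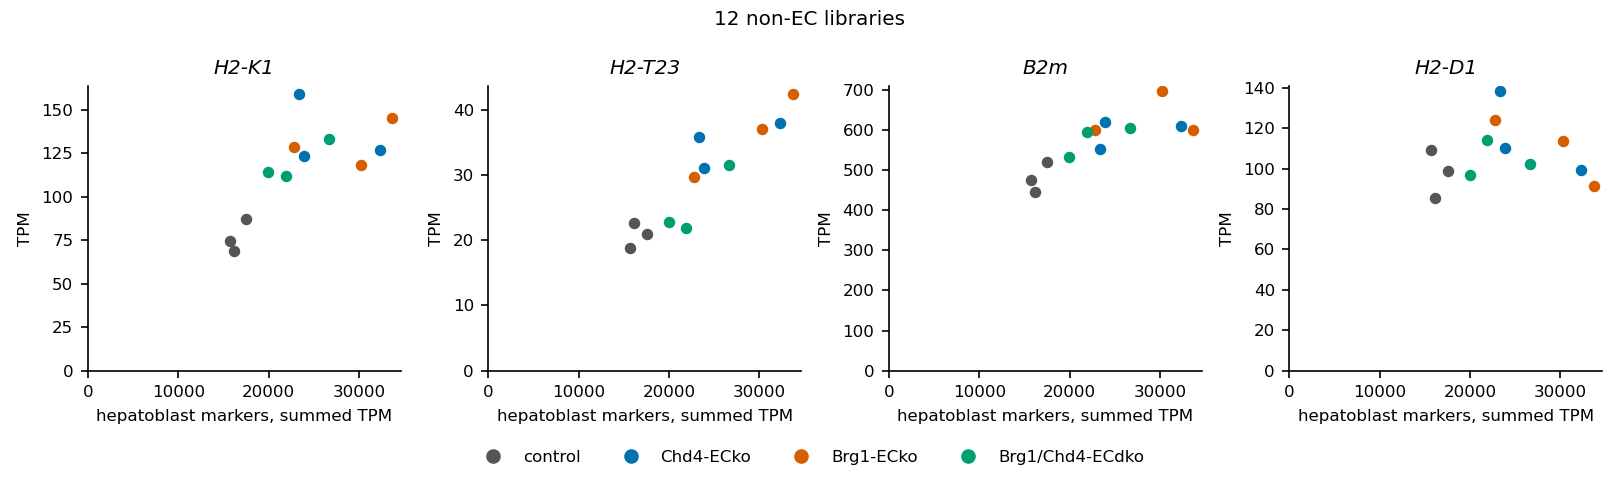
TPM of 4 class I pathway genes (y axes) against the summed TPM of 8 hepatoblast markers (x axes) in 12 non-EC libraries, 1 point each, coloured by genotype. The 3 controls lie lowest on the x axis, at 15717 to 17538 TPM; H2-K1 and B2m are higher in all 9 mutant libraries, and H2-D1 overlaps the controls.

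Whether an effect differed between the fractions was tested directly. None of the 9 genes passed for Chd4-ECko, Brg1-ECko or double mutants, against 1.02%, 1.04% and 0.0581% of 13775 genes, and at an unadjusted p under 0.05 by limma there were 1, 0 and 0, against 19.1%, 17.9% and 7.57%. H2-K1 gave the largest difference for Chd4-ECko, where its effect in LSECs minus that in non-EC cells was -0.81 ± 0.25 (adjusted p = 0.111, 95% confidence interval -1.32 to -0.30). Without the first Chd4-ECko non-EC library it passed (adjusted p = 0.0320), and without the third Chd4-ECko LSEC library it was -0.54 (adjusted p = 0.206). For Brg1-ECko and double mutants the difference for H2-K1 was -0.46 ± 0.25 (adjusted p = 0.330) and -0.21 ± 0.25 (adjusted p = 0.829). The calls in non-EC cells and their absence in LSECs are thus not shown to differ.

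Within a genotype, an LSEC library and the non-EC library with its number deviated together across all genes, with correlations of 0.124 to 0.411 over the 12 pairs, and each LSEC library correlated best with its own number in 12 of 12 cases. For single members, deviations of log2(TPM + 1) from the group mean were compared over these 12 pairs. None of the 10 relations held after adjustment over the 10 genes (permutation test, two-sided). The permutations ran over all 12 pairs without regard to genotype, although the deviations were centred within each genotype. Their p-values may therefore be too small. H2-T23 gave a Pearson r of 0.64 (p = 0.0283, adjusted p = 0.223) and a Spearman rho of 0.66 (p = 0.0225, adjusted p = 0.225), and r was 0.45 without the 2 pairs farthest from the median. Tapbp gave an r of 0.59 (p = 0.0446, adjusted p = 0.223) with a rho of 0.48 (p = 0.116, adjusted p = 0.386), and 0.37 without 2 pairs. The other 8 lay between -0.42 and 0.54.

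H2-T10 and H2-T24, heavy chain genes of the H2-T region that were singled out after their values were seen, differed from embryo to embryo in both fractions. H2-T10, a nonclassical heavy chain known as a ligand of gamma delta T cells, was 6.93, 0.770 and 5.25 TPM in control LSECs and 3.73, 0.236 and 2.17 TPM in the same-numbered non-EC libraries. It was 0.285, 0.266 and 0.401 TPM in Chd4-ECko LSECs and 0.459, 0.201 and 0.278 TPM in their non-EC cells, and 0, 4.91 and 0.399 TPM in Brg1-ECko LSECs with 0.0814, 7.22 and 0.103 TPM in their non-EC cells. In double mutants it was 2.31, 7.45 and 5.61 TPM and 1.30, 3.68 and 6.25 TPM. In 6 pairs both libraries lay above 1 TPM, in 6 both lay below, and no pair was split. The cut lies in a gap of these same values, between 0.770 and 1.30 TPM. How many other genes divide the pairs in this way is not given here. No Chd4-ECko embryo lay above 1 TPM and every double-mutant embryo did, so between Chd4-ECko and double mutants the H2-T10 level and the genotype cannot be told apart. Controls and Brg1-ECko had embryos on both sides of 1 TPM. H2-T24 was 7.72, 3.48 and 7.07 TPM in control LSECs and 15.6, 3.24 and 12.6 TPM in control non-EC cells. H2-T22 was 14.2, 38.1 and 17.6 TPM and 11.9, 21.7 and 14.0 TPM in the same libraries, highest in the embryo that was lowest for H2-T10 and H2-T24. In mutant non-EC libraries, in the order of the H2-T10 values above, H2-T22 was 38.8, 36.9 and 41.9 TPM in Chd4-ECko, 42.7, 24.6 and 37.6 TPM in Brg1-ECko, with 27.6, 15.3 and 18.9 TPM in the double mutants. The labels do not give the H2 haplotype of an embryo of this mixed background, and its part in the values of single H2 genes, H2-K1, H2-D1, H2-T23 and H2-T22 included, was not tested.

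Shared sequence bears on how reads of these genes were assigned, which the sources used here do not state. Of all 100-base stretches in the annotated transcripts of H2-K1, 2.03% also occurred in transcripts of another gene, most often H2-Q10, and the share was 2.53% for H2-D1 and 2.57% for H2-T23. It was 9.50% for H2-Q10, 7.23% for H2-T10, all with H2-T22, and 6.74% for H2-T22. It was 12.2% for Tapbp, nearly all with the overlapping gene Zbtb22, and 0% for B2m, Tap1, Tap2, Psmb8, Psmb9 and Nlrc5. These shares count exact matches in the reference strain. From such stretches the values of single H2 genes carry an uncertainty that those of B2m do not. Tap1 and Psmb9 lie on opposite strands and overlap in position, which the count, made in transcript direction only, does not see. The part of that overlap in their values was not tested.

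**Figure D5:**
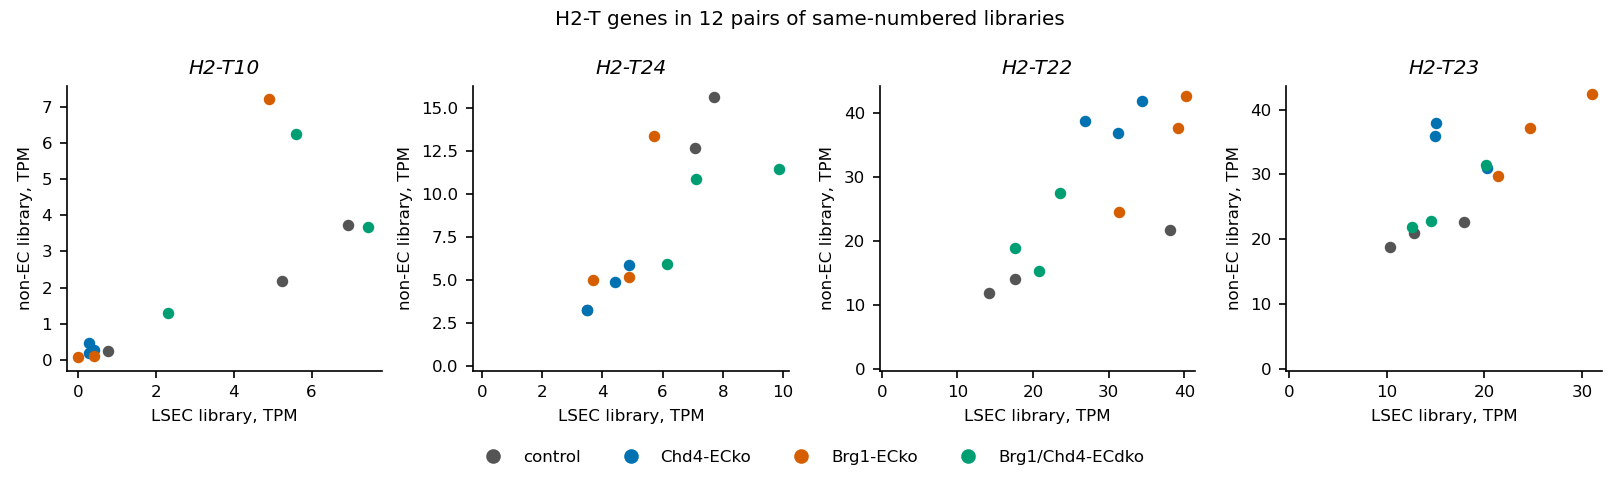
TPM of H2-T10, H2-T24, H2-T22 and H2-T23 in each LSEC library (x axes) and in the non-EC library of the same genotype and number (y axes), 12 pairs coloured by genotype. H2-T10 lies above 1 TPM in both libraries of 6 pairs and below 1 TPM in both of the other 6, which include all 3 Chd4-ECko pairs.

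The genes whose pattern over the 12 LSEC libraries was most like the mean of the 9 tested members, by Pearson r among 13435 other genes, were Adck2 (0.90), Cdkn1a (0.89), Tnfrsf1b (0.89), Man2b2 (0.88), Tlr2 (0.88), Ctsc (0.88), Phf11d (0.88), Ifi202b (0.87), Cebpb (0.87) and Slc8b1 (0.87). Cdkn1a encodes the cell cycle inhibitor p21, Tlr2 a receptor for bacterial lipoproteins and Ctsc the protease cathepsin C. Ctsc ranged from 19.2 to 56.8 TPM and Ifi202b, an interferon-inducible gene, from 6.18 to 29.4 TPM in these libraries. The libraries share genotype, embryo and the scaling of TPM, and the likeness is a description only.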

How the data were processed

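RNA of CD146+ LSECs and non-EC cells from E12.5 livers was sequenced by the authors, 24 libraries in 8 groups of 3. Livers were digested with transcription inhibitors, libraries were made with poly-A selection, repeated G bases were trimmed, and reads were aligned to GRCm39 (mm39) in CLC Genomics Workbench. The authors deposited TPM per gene and library, and 8 columns of group means that equalled the means of the replicates and were not used. TPM sum to the same total in each library, so depth is unknown and no interval of counting error could be given. The counting of reads that fit more than 1 gene is not given in the sources used here.

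Tests used limma (version 3.58.1, R 4.3.3), fitted to log2(TPM + 1) with a variance trend, two-sided, with Benjamini-Hochberg adjustment over all genes of the model. One model held the 12 libraries of a fraction (a gene needed 1 TPM or more in 3 of them), and one held all 24 for comparisons of fractions. Passing means an adjusted p under 0.05. A log2(TPM + 1) fold change understates the change of low genes. The replicates were numbered embryos. Same-numbered LSEC and non-EC libraries deviated together in all 12 pairs (correlation over 0.1), which comes from the data and the shared number. Within fractions the mean correlation of same-numbered libraries was 0.17 in LSECs and 0.12 in non-EC cells. For libraries with other numbers it was -0.08 and -0.06. Not every same-numbered pair within a fraction was over 0.1. The block with the 12 LSEC and non-EC pairs changed no call of a class I gene between fractions.

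The 10 genes, the other lists and the tests were chosen with earlier results of these data known. Genes of other lists could be named if they passed against control or between fractions, at most the 4 with the smallest p per list and comparison, and marker lists are given mainly by counts and sums. Where a gene was singled out later, the text says so. The alternatives were a pseudocount of 0.1 TPM, no filter, a minimum mean of 5 TPM, quantile normalization, TPM without mitochondrial genes, no variance trend, the replicate block, fits to only the groups compared, and omission of each library in turn. Permutation tests drew 100000 resamples. The fitting code was also run on simulated data, and the outcome is not given here. Positions are from the GENCODE annotation of GRCm39. Promoter windows are from RefSeq on GRCm38.p6. Figures were drawn with matplotlib 3.10.9.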

Additional observations from a re-analysis of the deposited data

Results flagged for a closer look

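No class I pathway gene had an effect that differed between LSECs and non-EC cells past the threshold. Of the marker genes reported beside them, 6 did so in 1 or more genotypes in the 24-library limma model (two-sided, Benjamini-Hochberg adjustment), and all values are the log2 effect in LSECs minus that in non-EC cells. For Chd4-ECko the leukocyte markers Laptm5 (1.34, adjusted p = 0.0167), Was (1.15, adjusted p = 0.0308), Rac2 (1.14, adjusted p = 0.0251) and Vav1 (1.09, adjusted p = 0.0235) and the transferrin receptor Tfrc (1.96, adjusted p = 0.0317) differed. They were 4 of 10 leukocyte and 1 of 8 erythroid markers tested, against 1.02% of all 13775 genes. For Brg1/Chd4-ECdko Rac2 differed (1.34, adjusted p = 0.0452), 1 of 10 leukocyte markers against 0.0581% of all genes. For Brg1-ECko the endothelial marker Lyve1 did (-1.96, adjusted p = 0.0336), 1 of 13 against 1.04%. In that contrast 12 of 13 endothelial markers had values below 0 (median -0.35). Without the first Brg1-ECko LSEC library, which held 25585 TPM of hepatoblast markers, Lyve1 was at -1.76 (adjusted p = 0.0816). Each of the 7 differences kept its sign when any of its 12 libraries was left out. The call was lost without 1 of the 12, the second control LSEC library, for Laptm5, and in Chd4-ECko without 6 for Rac2, 7 for Vav1, 8 for Was and 9 for Tfrc. It was lost without 11 for Rac2 in Brg1/Chd4-ECdko and without 7 for Lyve1. Each of the 7 calls was also lost in 1 or more of 8 other settings. With only the compared groups in the model the 5 Chd4-ECko calls and that of Lyve1 were lost, Lyve1 also with a pseudocount of 0.1 TPM and with no filter on low values, and Rac2 in Brg1/Chd4-ECdko with no filter and with no variance trend.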

How the results depend on the processing

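Over 9 class I genes and 12 comparisons, 28 of 108 log2 fold changes had the other sign in at least 1 alternative. None of the 28 had passed, and their sizes were at most 0.22. Of the 40 values of single class I genes given with an adjusted p, 1 reversed, that of H2-K1 in Chd4-ECko LSECs, which was 0.01, -0.0092 without mitochondrial genes and -0.13 to 0.29 without 1 library. For those 40, over the settings other than leaving out a library, 306 of 317 values kept their direction and side of the threshold, 2 lost a call and 8 gained one. Over those that left out 1 library, 241 of 258 kept them, 11 lost a call and 3 gained one. The calls of Irf9 and Jak2 in double-mutant LSECs were lost in 1 and 2 of 8 other settings, and that of Jak2 in Chd4-ECko non-EC cells in 4 of 8. In Chd4-ECko non-EC cells 2 class I genes passed, 1 with the compared groups alone, and 1 to 4 when 1 library was left out. In Brg1-ECko non-EC cells 3 passed, and 1 to 3 without 1 library. In Brg1/Chd4-ECdko non-EC cells 0 passed, and 1, H2-K1, did after quantile normalization. Between the control fractions 2 passed, 5 after quantile normalization, 4 with the compared groups alone, and 1 to 2 without 1 library. The difference of the Chd4-ECko effect between fractions was passed by 0 genes, and by 0 to 1 without 1 library. The cause of these shifts was not tested. No member passed against control in LSECs under any alternative run, and no relation between same-numbered libraries passed with a pseudocount of 0.1 TPM or without mitochondrial genes.

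With the replicate block, 1 gene, H2-K1 (adjusted p = 0.0357), passed in Brg1/Chd4-ECdko against control non-EC cells, and no other count of passing class I genes changed. Within a fraction the numbers are not stated to mark a shared litter or day. Of 18 same-numbered pairs, 13 in LSECs and 9 in non-EC cells had a correlation of deviations over 0.1. Of 36 pairs with other numbers, 8 in LSECs and 8 in non-EC cells did. The block raised the number of genes that passed from 71 to 301 in Brg1/Chd4-ECdko and from 1159 to 1438 in Chd4-ECko non-EC cells. In Brg1-ECko non-EC cells that number rose from 1426 to 1603. In LSECs it rose from 95 to 131 in Chd4-ECko, from 3 to 11 in Brg1-ECko and from 117 to 164 in Brg1/Chd4-ECdko.

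The number of reads behind a TPM value is unknown, so values of low genes such as Nlrc5, Psmb9 and Tap1 have an unstated counting error. The differences of Tapbp and Tap2 in LSECs, with 3 embryos a group, did not pass. The part of group size in this was not tested.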
